A study of Mus musculus with 4 samples.

Results

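Cyp2b9, Cyp2b10 and Cyp2b13 encode mouse cytochrome P450 enzymes of the 2B subfamily, and were read here in liver after removal of the adrenal glands. The 3 genes were taken through the platform annotation, as every probe set with 1 of these symbols as its only gene. Each gene had 1 such probe set, so they were 3 of the 8251 genes with a single-gene probe set on the array. They were picked with their signals on these arrays known, as genes induced after adrenalectomy, so the contrasts described for them are a description and no test supports them. The working name held only in part. On the arrays of adrenalectomised mice the Cyp2b9 signal was higher at both times and the Cyp2b13 signal at 1 time, while the Cyp2b10 signal passed 2-fold at neither.

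The study hybridised liver RNA of male C57BL/6 mice to 4 Affymetrix MG_U74Av2 GeneChips, 1 array per group. Sham-operated mice had free access to standard chow and water, and liver was collected at ZT2 or ZT14, zeitgeber time (ZT) being counted in hours from lights on. Adrenalectomised (ADX) mice had both adrenals taken out through the back under ketamine (91 mg/kg) and xylazine (3.6 mg/kg), received CE-2 chow and drank 0.9% NaCl, and were sampled at the same ZT2 and ZT14. Operation, drinking fluid and any difference between the named diets therefore cannot be told apart. The labels give neither the number of animals behind an array nor the days between operation and sampling. With 1 array per group there was no replicate spread, and no p-value for a difference is given.

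Enzymes of this subfamily sit in the endoplasmic reticulum and oxidise drugs, steroids and other lipophilic compounds. Cyp2b10 is the classical phenobarbital-inducible gene of mouse liver, switched on when the constitutive androstane receptor (CAR, Nr1i3) pairs with the retinoid X receptor at an enhancer far upstream of the gene; the pregnane X receptor (PXR, Nr1i2) can act on the same enhancer. Cyp2b9 and Cyp2b13 are known as female-biased genes, kept low in adult male liver by the male pattern of growth hormone release, which signals through STAT5b. Glucocorticoids, whose main source is the adrenal cortex, act through the glucocorticoid receptor (Nr3c1).

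The 3 genes lie in a cytochrome P450 cluster on mouse chromosome 7. In the RefSeq gene order (GRCm38.p6), Cyp2b10 is followed by 2 Cyp2b pseudogenes, then Cyp2b13, a further Cyp2b pseudogene and Cyp2b9. The cluster holds 13 protein-coding Cyp2 genes, 5 of them Cyp2b genes, and 7 of the 13 had a single-gene probe set. RefSeq promoter windows of 300 bases, from 250 before to 50 after a start position for each gene, were found for all 5 Cyp2b genes. For Cyp2b9, Cyp2b13 or both, the RefSeq gene itself begins after the first 143 bases of the window, ahead of that start position. The Cyp2b9 and Cyp2b13 windows were identical at 298 of 300 bases (99.3%), whereas those of Cyp2b9 and Cyp2b10 shared 77.2% of 289 aligned bases. The start of the Cyp2b9 window (chr7:26173159-26173301, plus strand) and of the Cyp2b13 window (chr7:26061245-26061387, plus strand) are printed to show how alike they are. Capitals mark the 2 differing bases, T48C and C104T from Cyp2b9 to Cyp2b13 counted from the 5′ end of the window, and an AGGTCA match.
Cyp2b9: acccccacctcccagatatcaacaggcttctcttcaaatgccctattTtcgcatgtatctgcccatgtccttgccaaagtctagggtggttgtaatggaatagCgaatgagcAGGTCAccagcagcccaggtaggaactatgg
Cyp2b13: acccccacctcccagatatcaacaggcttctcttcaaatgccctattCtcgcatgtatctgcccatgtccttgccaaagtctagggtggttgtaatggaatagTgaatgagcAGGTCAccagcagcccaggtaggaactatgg

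AGGTCA is the half-site to which many nuclear receptors bind. It was searched on both strands, and lay 138 bases upstream of the start position in Cyp2b9 and in Cyp2b13. It lay nearer to the earlier gene start given above. It was also in the Cyp2b19 and Cyp2b23 windows but not in that of Cyp2b10, and 16.3% of all 32851 windows hold it. The 250 bases before the start of Cyp2b10 (chr7:25897408-25897657, plus strand) are given for comparison, with a TTGCATAA match, an element of the C/EBP type, in capitals.
Cyp2b10: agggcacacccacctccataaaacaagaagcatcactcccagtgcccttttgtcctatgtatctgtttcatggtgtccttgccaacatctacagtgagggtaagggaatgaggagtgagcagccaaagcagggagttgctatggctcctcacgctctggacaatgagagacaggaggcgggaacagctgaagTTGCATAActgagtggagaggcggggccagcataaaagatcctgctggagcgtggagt

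The letters of that element differed between Cyp2b9 and Cyp2b13 on the one side and the other Cyp2b genes of the cluster on the other. TTGCATAA was found in the windows of Cyp2b10, Cyp2b19 and Cyp2b23 (0.743% of all windows hold it), and TTGTATAA stood at the corresponding place in Cyp2b9 and Cyp2b13 (0.581%). The 28 bases around it are shown for all 5 genes, with the element in capitals. Its first base lay 59 bases upstream of the start position in Cyp2b9 and Cyp2b13, 58 in Cyp2b10, 40 in Cyp2b19 and 85 in Cyp2b23. In Cyp2b9, Cyp2b13 or both, the element thus lay past the earlier gene start, inside the RefSeq gene.
Cyp2b9: acagttggagTTGTATAAcctagtgggg
Cyp2b13: acagttggagTTGTATAAcctagtgggg
Cyp2b10: acagctgaagTTGCATAActgagtggag
Cyp2b19: atagctggagTTGCATAAgtgagtagga
Cyp2b23: acagctgaagTTGCATAActgagtggag

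The motifs TTCNNNGAA (STAT factors), TTATGTAA (the D-box of Dbp and its relatives) and the palindromic glucocorticoid response element, a pair of AGAACA half-sites facing each other across 3 free bases, were not in any of the 5 windows. Of all windows, 8.30%, 0.938% and 0.00913% hold them. These matches describe letters in short windows only, and the CAR enhancer of Cyp2b10 lies outside them.

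Values are Affymetrix Signals, the brightness of a probe set in linear units, after each array was scaled to a common trimmed mean. A detection call (Present, Marginal or Absent) accompanies each. Signals below a floor of 3.91 units were raised to it before a log2 difference was taken. Probe sets with a Present call on any array are termed measured. A measured probe set counted as higher or lower where its signals were 2-fold or more apart and the larger of them carried a Present call. A fold over a signal without a Present call is written "at least". It holds for this scaling and floor only, and a higher floor can give a smaller fold. Signals of different probe sets are not on a shared scale, so levels are compared only within a probe set. Of 12422 probe sets, 6583 were measured (5007 genes), and all 3 Cyp2b probe sets were among them.

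The arrays had 5543 to 5865 Present calls (44.4% to 47.0% of the probe sets with controls), scale factors of 0.925 to 1.07, and 3′ to 5′ ratios of 1.69 to 1.89 for actin and 0.912 to 1.03 for Gapdh. Hepatocyte markers were in place, with 8 of 8 matched genes Present on at least 1 array and summed signals between 28236 and 29919. Without the scaling, the median ADX minus sham log2 difference of measured probe sets was -0.15 at ZT2 and -0.10 at ZT14. The scaling also moved the balance of calls between higher and lower. At ZT2, 67.5% of the called probe sets were higher in ADX after scaling, 43.4% with signals as deposited and 45.9% after quantile normalization; at ZT14 the shares were 60.2%, 43.6% and 49.6%. Between ZT14 and ZT2, higher calls made up 57.5%, 46.6% and 45.5% in sham and 54.1%, 49.1% and 42.4% in ADX, in the same order of scalings.

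Cyp2b9 differed most of the 3 genes. Its scaled signal was 9.0 in sham at ZT2 and 6.3 in sham at ZT14, Absent on both (deposited detection p-values 0.0604 and 0.285). It was 29.8 in ADX at ZT2 and 238.4 in ADX at ZT14, Present on both (0.00653 and 0.000219). Both ADX signals lay above both sham signals, and the ADX signal at ZT14 stood far above the other 3. Against sham at the same time, Cyp2b9 was at least 3.32-fold higher in ADX at ZT2 (log2 difference 1.73) and at least 38.1-fold higher at ZT14 (5.25). With the floor at 23.9 units these log2 differences fell to 0.32 and 3.32. The ADX signal at ZT14 was 7.99-fold that at ZT2 (log2 difference 3.0, with both arrays Present). The sham arrays gave no such difference: the signal at ZT14 was below that at ZT2 by 0.52 on the log2 scale, with neither array Present, so it gives no order.

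Cyp2b13 was seen on a single array. Its scaled signals were 1.6 in sham at ZT2, 0.9 in sham at ZT14 and 0.7 in ADX at ZT2, all Absent and under the floor, with deposited detection p-values of 0.679, 0.919 and 0.933. In ADX at ZT14 the signal was 16.5 and Present (0.000468). The 3 lower values, all below the floor, have no order among themselves. At ZT14 the ADX array was at least 4.23-fold above the sham array (log2 difference 2.08). Within ADX, ZT14 was at least 4.23-fold above ZT2 (2.08). At ZT2 both arrays were at the floor, so no fold between ADX and sham can be given.

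Cyp2b10 was Present on all 4 arrays and varied less. Its scaled signals were 70.0 in sham at ZT2, 42.3 in sham at ZT14, 52.5 in ADX at ZT2 and 77.5 in ADX at ZT14. The lowest value was in sham and the highest in ADX, both at ZT14, and at ZT2 the order was the other way round. At ZT14 the ADX signal was 1.83-fold the sham signal (log2 difference 0.87), and at ZT2 it was 1.33-fold lower (-0.41). Across the day, Cyp2b10 was 1.66-fold lower at ZT14 than at ZT2 in sham (-0.73) and 1.47-fold higher in ADX (0.56). For a sense of size, among 2330 probe sets Present on both ZT14 arrays with a mean signal within 2-fold of that of Cyp2b10, 1.93% differed by as much as it did. The corresponding shares were 13.4% of 2396 for ADX against sham at ZT2, 7.41% of 2375 for the sham day-night pair and 13.1% of 2337 for the ADX pair. These shares are not tests, since Cyp2b10 was picked with its signals on these arrays known. The robust SD of the log2 difference over all probe sets Present on both arrays was 0.25 and 0.31 for ADX against sham at ZT2 and ZT14, and 0.35 and 0.33 for the day-night pairs in sham and ADX.

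**Figure D1:**
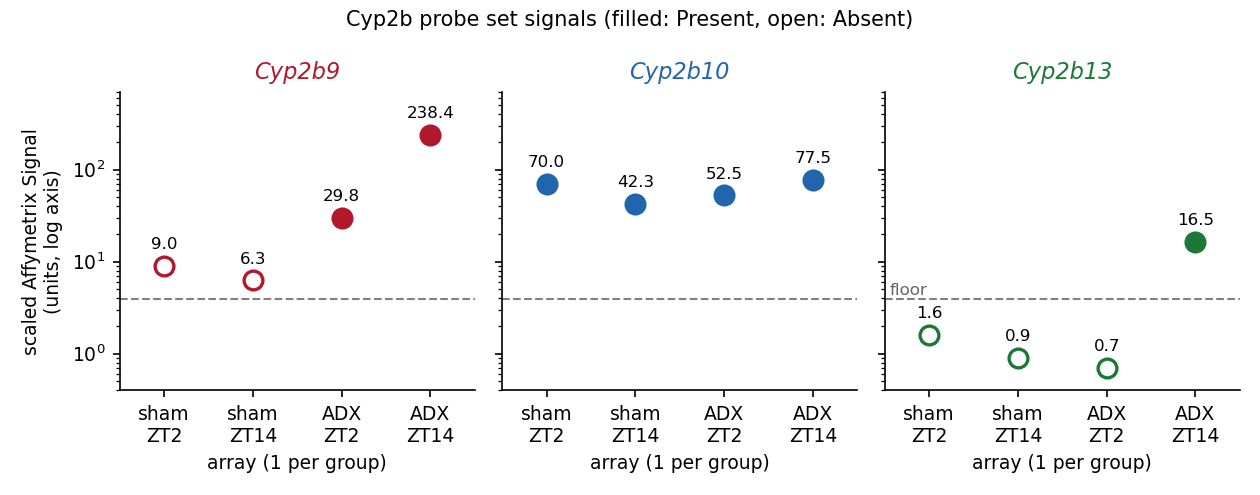
Scaled Affymetrix Signal (units, log axis) of the Cyp2b9, Cyp2b10 and Cyp2b13 probe sets on each of the 4 arrays, 1 array per group and so no error bars; filled points were Present, open points Absent, and the dashed line is the floor of 3.91 units. Cyp2b9 goes from 6.3 and 9.0 in sham to 29.8 and 238.4 in ADX, Cyp2b13 is Present only in ADX at ZT14 (16.5), and Cyp2b10 stays between 42.3 and 77.5.

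By the 2-fold rule, 1 of the 3 genes was higher in ADX at ZT2, where 1.64% of all measured probe sets were higher and 0.790% lower. At ZT14, 2 of the 3 were higher, against 2.23% of measured probe sets higher and 1.47% lower. No member was past 2-fold between ZT14 and ZT2 in sham, where 3.21% of probe sets were higher and 2.37% lower. In ADX 2 of the 3 were higher at ZT14, against 2.69% higher and 2.28% lower. Nothing is read from these counts, since the genes were chosen for the contrasts. The ADX minus sham difference at ZT14 exceeded that at ZT2 by 3.52 on the log2 scale for Cyp2b9, 1.29 for Cyp2b10 and 2.08 for Cyp2b13. The first and the last of these use dim sham arrays and depend on the floor. Each comparison between operations shares its arrays with a day-night comparison, so the 4 sets of values are not independent.

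Detection calls placed Cyp2b9 and Cyp2b13 in a pair of small classes. Present on both ADX arrays and on neither sham array were 69 measured probe sets (1.05%), with Cyp2b9 among them. Present in ADX at ZT14 alone were 140 probe sets (2.13%), with Cyp2b13 among them. Cyp2b19, another gene of the subfamily, was Absent on all 4 arrays, with scaled signals of 2.0 and 6.2 in sham and 4.6 and 1.6 in ADX, at ZT2 and ZT14. Cyp2b23 had no single-gene probe set. Of the cluster's other Cyp2 genes with a single-gene probe set, Cyp2a12 and Cyp2f2 were measured and neither passed 2-fold in a comparison. Cyp2a12 signals were 1263.9 and 1196.3 in sham and 1341.6 and 1380.6 in ADX, Cyp2f2 signals 1548.8 and 1528.5 in sham and 1383.6 and 1257.4 in ADX (ZT2 then ZT14 in each case). Cyp2s1 was Absent throughout, and the remaining Cyp2 genes were not analysed here.

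The coding regions of Cyp2b genes are alike, and the probe sequences were not used here. Whether the Cyp2b9 and Cyp2b13 probe sets each read only their own transcript, or also that of the other, of Cyp2b10 or of Cyp2b23, was not tested.

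The regulators of Cyp2b genes showed no difference of that size. Signals of CAR (Nr1i3, brightest of 3 probe sets) were 294.4 in sham and 320.5 in ADX at ZT2, and 462.8 and 446.2 at ZT14. The ADX minus sham log2 difference was 0.12 at ZT2 and -0.05 at ZT14, and the other probe sets of Nr1i3 gave 0.28 and 0.18 at ZT2 and -0.02 and 0.00 at ZT14. PXR (Nr1i2) had signals of 68.4, 48.8, 67.5 and 87.0; such series of 4 signals are in the order sham at ZT2 and ZT14, then ADX at ZT2 and ZT14. Like Cyp2b10, it was lowest in sham at ZT14 and highest in ADX at ZT14, where it was 1.78-fold above sham (log2 difference 0.84). The partner receptor Rxra read 64.2, 73.7, 74.3 and 85.4 on its brightest probe set, and 55.0, 69.8, 58.1 and 55.9 on the other. At ZT14 their ADX minus sham log2 differences were 0.21 and -0.32. The glucocorticoid receptor Nr3c1 read 17.4, 21.1, 15.5 and 14.2, and the hepatocyte factor Hnf4a 144.7, 191.9, 159.9 and 186.7.

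None of these 5 receptors and factors passed 2-fold between ADX and sham. The arrays read their RNA only, and the activity of the proteins was not measured. Over the 27 measured genes of the regulator list, 0 were higher or lower in ADX at ZT2 (1.42% of all 5007 measured genes were higher and 0.739% lower) and the median log2 difference was -0.03, beside 0.01 for all measured genes. At ZT14, 1 was higher and 1 lower (1.86% and 1.28% of all genes), with a median of -0.02 beside 0.03. The gene that was higher was the nuclear receptor coactivator Ncoa3, with signals of 11.6, 4.6, 11.4 and 12.7 and an Absent call in sham at ZT14 (at least 2.77-fold). The gene that was lower was Fkbp5, a chaperone of steroid receptors and itself a glucocorticoid target, with signals of 45.8, 160.8, 40.1 and 60.5 (2.66-fold). The clock-output factors Dbp and Tef, which regulate xenobiotic genes, read 98.2 and 208.3 in sham and 115.8 and 197.3 in ADX at ZT14. At ZT2 Tef read 35.0 and 21.0, and Dbp was Absent on both arrays. Both were thus past 2-fold higher at ZT14 in sham and in ADX, and Cyp2b9 in ADX alone. Hlf, another factor of that family, had no single-gene probe set.

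Other genes switched on through CAR and PXR did not pass 2-fold between operations, with 1 exception. Of 26 measured targets other than the Cyp2b genes, 0 were past 2-fold at ZT2, where 1.42% of all genes were higher and 0.739% lower (median log2 difference -0.09, range -0.44 to 0.50). At ZT14, 0 were higher and 1 was lower, beside 1.86% and 1.28% of all genes (median -0.08, range -1.27 to 0.56). The latter was Cyp1a1, whose signals were 8.3, 9.8, 8.0 and 4.1, with both ADX arrays Absent (at least 2.41-fold), and averaging over all probe sets of a gene left 0. Cyp3a11, the main PXR target of mouse liver, read 3631.7, 3492.7, 2947.4 and 2922.6, and Cyp2c29, a CAR target, 89.4, 70.8, 71.1 and 79.2; these 2 were named after their values were seen. Across the day, 2 of the 26 were higher at ZT14 in sham (Alas1 and Thrsp) and 4 in ADX (these and Papss2 and Abcb1a), where 3.0% and 2.54% of all measured genes were higher. No target was lower at ZT14, against 2.20% of genes in sham and 2.10% in ADX. Alas1, which makes the haem that P450 enzymes carry, read 609.4 and 1998.2 in sham and 554.8 and 1861.1 in ADX, so its day-night difference was about as large in both groups (log2 1.71 and 1.75).

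**Figure D2:**
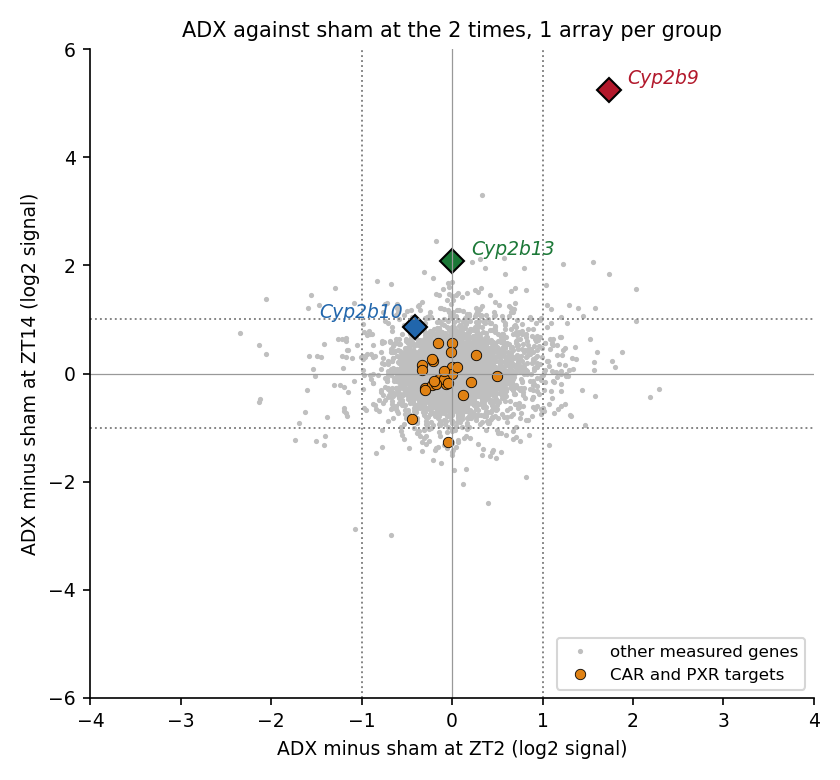
ADX minus sham difference at ZT2 (horizontal axis, log2 signal) against that at ZT14 (vertical axis, log2 signal) for 5007 measured genes, each point 1 gene on 1 array per group; diamonds are the Cyp2b genes, orange points the 26 other CAR and PXR targets, and dotted lines mark 2-fold. Among these genes Cyp2b9 lies alone at 1.73 and 5.25, while Cyp2b10 (-0.41 and 0.87) lies at the edge of the main cloud. In that cloud all but 1 of the orange points stay inside the dotted lines. A probe set without a single gene symbol, not drawn, was higher in ADX at ZT14 by 4.59 (24.1-fold).

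Growth hormone signalling and sex-biased genes were described because Cyp2b9 and Cyp2b13 are known as female-biased genes that respond to growth hormone. Of 16 measured growth hormone genes, 0 were higher and 1 lower in ADX at ZT2, with a median log2 difference of -0.25, and 0 passed at ZT14 (median 0.00). Over all measured genes, 1.42% were higher and 0.739% lower at ZT2, and 1.86% and 1.28% at ZT14. The gene that was lower was Igfbp1, an insulin-like growth factor binding protein, with signals of 547.3, 24.1, 125.2 and 34.6 (4.37-fold at ZT2). Socs2 and Cish, feedback inhibitors made in response to STAT5, were named after their values were seen. Socs2 read 84.4 in sham and 43.1 in ADX at ZT2, and 32.3 and 55.0 at ZT14. Cish read 37.5 and 19.2 at ZT2, and 36.4 and 23.5 at ZT14. Both had a log2 difference of -0.97 at ZT2, just short of 2-fold. With signals as deposited both read -1.14, and after quantile normalization Socs2 read -1.0 and Cish -1.01, so that 3 genes of the list were lower under either scaling. Stat5b was Marginal, Absent, Present and Absent (27.6, 2.4, 22.3 and 14.3) and gives no call.

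Of 14 measured female-biased genes other than the Cyp2b members, 0 were higher and 1 lower in ADX at ZT2 (median -0.01), and 2 were higher and 0 lower at ZT14 (median 0.24). The shares over all measured genes were 1.42% higher and 0.739% lower at ZT2, and 1.86% and 1.28% at ZT14. The peroxisomal oxidase Hao2 had scaled signals of 0.2, 0.3, 0.7 and 12.7 and was Present only in ADX at ZT14, the same sequence of calls as Cyp2b13; it was there at least 3.25-fold above sham. Lipoprotein lipase (Lpl) read 69.4, 40.1, 95.4 and 83.9 and was 2.09-fold higher at ZT14, although its other probe set was not Present on any array. With signals as deposited, 1 of the 14 remained past 2-fold at ZT14. The fatty acid hydroxylase Cyp4a14, lower at ZT2, read 649.1, 309.8, 217.2 and 389.3 (2.99-fold). Of 23 measured male-biased genes, 0 passed at ZT2 (median -0.06). At ZT14, 0 were higher and 1 was lower (median -0.15), the trefoil peptide Tff3, with signals of 14.5, 34.0, 9.8 and 16.2 and Absent in ADX (at least 2.10-fold).

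Of 28 measured glucocorticoid targets, 1 was higher and 3 were lower in ADX at ZT2 (median -0.03), and 2 were higher and 4 lower at ZT14 (median -0.12). Over all measured genes, 1.42% were higher and 0.739% lower at ZT2, and 1.86% and 1.28% at ZT14. On the ZT14 arrays on which Cyp2b9 was higher, the transcription factor Zbtb16 (22.7, 114.2, 14.2 and 14.5) was lower in ADX by 7.87-fold and the lipid phosphatase Lpin1 (59.9, 324.0, 28.5 and 44.3) by 7.31-fold. The sialyltransferase St3gal5 (76.6, 391.0, 60.9 and 144.2) was 2.71-fold lower there, and Fkbp5 was the last of the 4. The metal-binding protein Mt1 (47.8, 306.8, 50.3 and 861.4) was 2.81-fold higher in ADX at ZT14. Serpina6, the corticosteroid-binding globulin (723.6, 1118.7, 616.3 and 2323.9), was 2.08-fold higher, although another probe set of the gene read 0.45 on the log2 scale. At ZT2, Igfbp1, Lpin1 (2.10-fold) and the gluconeogenic enzyme Pck1 (325.7, 578.7, 137.7 and 497.7; 2.36-fold) were lower, and the cell cycle inhibitor Cdkn1a (15.9, 12.3, 34.3 and 17.9) was 2.16-fold higher. Zbtb16, Igfbp1 and Cdkn1a each had another probe set, Absent on all arrays. That of Zbtb16 read 1.15 on the log2 scale at ZT14 and that of Cdkn1a -0.49 at ZT2, the other way from the values above.

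**Figure D3:**
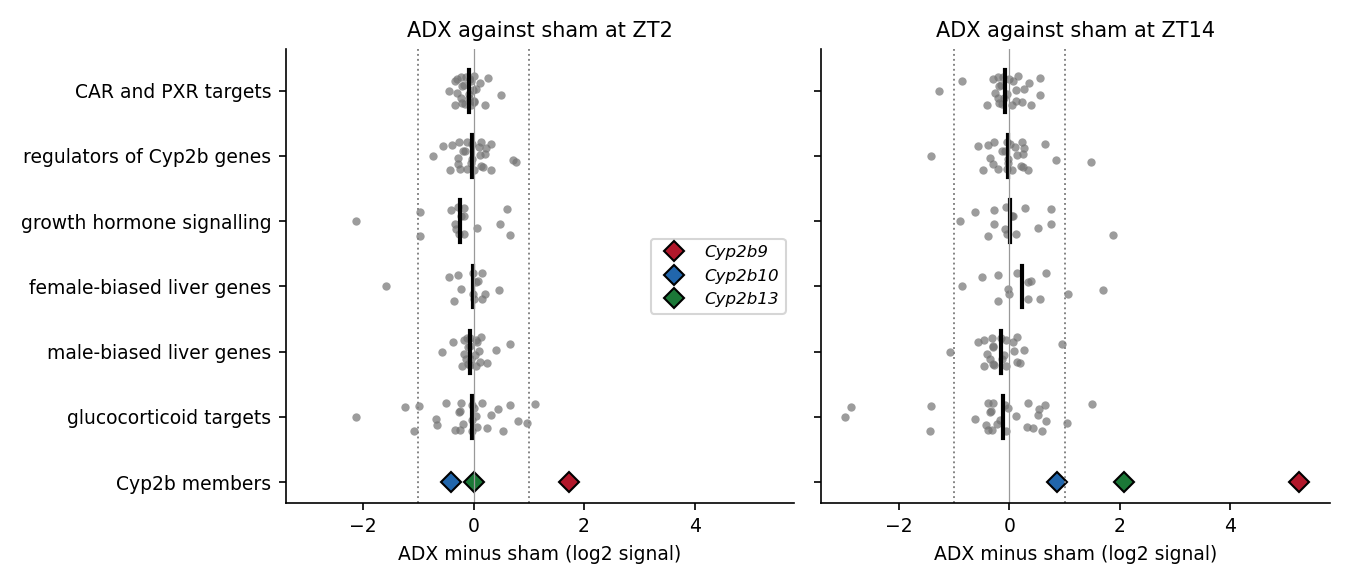
ADX minus sham difference (log2 signal) at ZT2 (left) and ZT14 (right) for measured genes of 6 lists, each point 1 gene, black bars the list medians, and for the Cyp2b genes (diamonds); dotted lines mark 2-fold, and a point beyond them counted only if its brighter array was Present. The list medians lie between -0.25 and 0.24, and Cyp2b9 at ZT14 (5.25, at the floor of 3.91) lies beyond every gene drawn from the lists.

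The genes whose pattern was most like that of Cyp2b9 were found by the Euclidean distance between log2 signals, each centred on its mean over the 4 arrays, among 5932 probe sets of 1 gene. Kap, a kidney androgen-regulated protein, was nearest at a distance of 1.71, with scaled signals of 4.1, 4.0, 5.1 and 39.8 and a Present call in ADX at ZT14 alone. It was at least 9.94-fold above sham there. Capn9 (2.45), Thbs2 (2.52) and Krt84 (2.56) followed, then Cyp2b13 in 5th place (2.56), Dab2 (2.59), Rnf145 (2.61), Oxct1 (2.64) and Cd276 (2.65). Cyp2b10 came in place 520 (3.69). A place in this order is relative to other probe sets and does not mean a close match. Only the ADX signal at ZT14 of Cyp2b13 was above the floor, so its place depends on the floor. Rnf145, a membrane-bound ubiquitin ligase, was Present on all arrays, alone among these genes with Cyp2b10 left aside, with signals of 27.7, 50.1, 56.7 and 155.0; it was 2.05-fold higher in ADX at ZT2 and 3.09-fold at ZT14. The others were not Present on the sham arrays. The Dab2 probe set near Cyp2b9 was Absent in ADX at ZT14 and was not called there. Neither it nor that of Cd276 was the brightest of its gene, and the brightest gave 0.62 and 0.23 at ZT14. The other Krt84 probe set was Absent on all arrays. Ranking by Pearson correlation over the 4 arrays shared 1 of the 8 genes.

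Because Kap is abundant in kidney, kidney markers are given beside it. Of 10 matched markers, 6 were Absent on all 4 arrays, among them Umod, Slc12a3 and Aqp2, and the summed signal was 188 and 160 in sham and 195 and 188 in ADX, at ZT2 and ZT14. Pth1r (31.3, 16.7, 19.7 and 28.7) and Cyp4b1 (139.6, 112.7, 139.3 and 128.3) were Present on all arrays. Slc12a1 (3.2, 6.4, 9.3 and 7.0) was Present in ADX at ZT2 alone, at least 2.37-fold above sham, and Slc34a1 (5.7, 8.6, 3.8 and 3.7) in sham at ZT14 alone, at least 2.20-fold above ADX. At ZT14 the ADX minus sham log2 difference was above 0 for 3 of these 4 and below 0 for 1 (median 0.17). None of the 4 had its highest signal in ADX at ZT14, where Kap was Present. Whether kidney tissue contributed to the Kap signal was not tested. Of 5 measured genes of the list that holds Kap, 0 were higher and 1 lower in ADX at ZT2. At ZT14, 1 (Kap) was higher and 0 were lower. Over all measured genes, 1.42% were higher and 0.739% lower at ZT2, and 1.86% and 1.28% at ZT14. The gene that was lower was Shbg, the sex hormone binding globulin (16.3, 7.0, 2.9 and 18.4), by at least 4.17-fold. Among the other marker lists, the bile duct gene Cftr (2.8, 8.1, 1.1 and 1.2) was at least 2.07-fold lower in ADX at ZT14. Its other probe sets were Absent on all arrays. The hepatocyte marker Ass1 (40.6, 31.6, 14.7 and 75.4) was 2.39-fold higher there. The B cell marker Ms4a1 (22.2, 16.0, 20.2 and 37.1) was at least 2.32-fold higher, although its other probe set was Absent on all arrays. Hba-a1 and Lpl, also higher there, are given elsewhere.

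Haemoglobin signals varied in the same order as those of Cyp2b10. The 5 matched red blood cell markers summed to 1900, 1183, 1599 and 2168, with Epb42 and Slc4a1 Absent on all arrays. Most of the sum was Hba-a1, which read 1552.4, 873.8, 1260.9 and 1788.8 and was 2.05-fold higher in ADX at ZT14. Hbb-b2 read 140.0, 119.2, 122.8 and 199.7, whereas Alas2, the erythroid haem synthesis enzyme, read 202.5, 178.3, 207.5 and 170.9 and was lowest in ADX at ZT14. The part of blood in the Cyp2b10 values was not tested. Adipose markers summed to 110 and 78.3 in sham and 151 and 143 in ADX, with Adipoq, Lep and Retn Absent on all arrays. Lpl, given above, made up most of each sum, and the other Present marker, Fabp4, read 9.4, 10.8, 8.1 and 5.6 and was lowest in ADX at ZT14. In whole liver, fewer cells of a type and less RNA per cell cannot be told apart.

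The treatment of dim signals set the size of the Cyp2b9 and Cyp2b13 values but not that of Cyp2b10. Cyp2b9 was past 2-fold at ZT14 under every scaling and floor run, with log2 differences from 3.32 to 5.27, and its day-night difference in ADX ran from 2.96 to 3.02. At ZT2 it was past 2-fold under all of them but the highest floor, 23.9 units, the 95th percentile of Absent signals, which left 0.32. Cyp2b13 at ZT14 ran from 0.00 at that floor, which is above its brightest signal, to 4.05 with a floor of 1 unit. Requiring a Present call on both arrays removes Cyp2b9 and Cyp2b13 from every comparison with sham. Cyp2b10 at ZT14 ran from 0.75 to 0.87 under all of them.

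**Figure D4:**
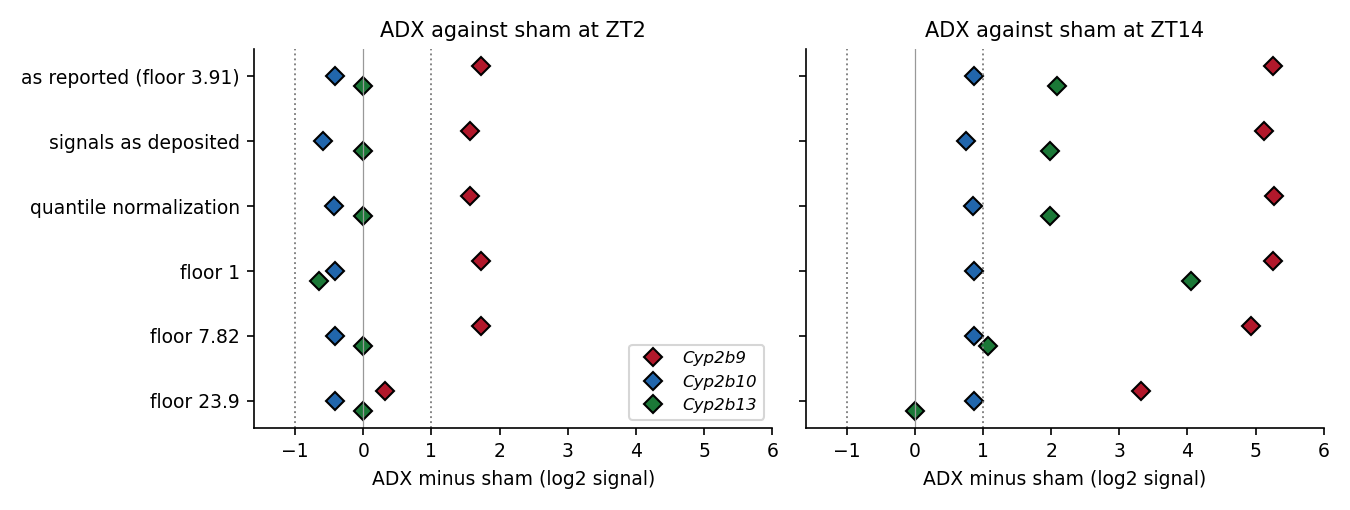
ADX minus sham difference (log2 signal) at ZT2 (left) and ZT14 (right) of Cyp2b9, Cyp2b10 and Cyp2b13 as reported, with signals as deposited, after quantile normalization and with other floors (in units); 1 array per group, dotted lines at 2-fold. At ZT14 Cyp2b9 stays at 3.32 or more, Cyp2b13 moves between 0.00 and 4.05, and Cyp2b10 stays between 0.75 and 0.87.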

How the data were processed

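Liver RNA of 4 groups was read on 4 Affymetrix MG_U74Av2 arrays. Per the file headers, the authors deposited a linear intensity (Signal) for every probe set. A call and a p-value for its detection are deposited beside it. Neither the software nor a scaling target is stated in the labels or headers. The deposited series value table held the same intensities (largest difference 0).

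Each array was scaled to a common 2% trimmed mean. Lowest Present (3.05) and median Absent signals (3.91) were compared and the higher taken as floor, and log2 values were computed from the deposited intensities after scaling and floor. The 66 control probe sets were then left out. Symbols came from the platform annotation: 10833 probe sets had 1 and 396 several, the latter unused, and a gene was represented by its brightest probe set, except for likeness, which ranked probe sets. No test was run; the 2-fold rule is one of size. The number of arrays limits the precision. Steps were tested on simulated data.

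The genes, lists and rules were chosen with earlier results of these data known. The rule for names took the 3 Cyp2b genes, list genes past 2-fold in ADX against sham, 9 regulators (Hlf could not be matched), and the 8 genes nearest to Cyp2b9; further names (Socs2, Cish, Alas1, Cyp3a11, Cyp2c29 and markers and neighbours not past 2-fold) were chosen after their values were seen. The alternatives were signals as deposited, quantile normalization, other floors, Present on both arrays, a 1.5-fold threshold, the mean of a gene's probe sets for lists, and correlation for likeness. Promoters are RefSeq windows of GRCm38.p6. Python 3.11.15, NumPy 2.4.6, pandas 2.3.3, Biopython 1.88 and matplotlib 3.10.9 were used.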

Additional observations from a re-analysis of the deposited data

Results flagged for a closer look

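Genes named in the text were searched for reversals. Each value here is a log2 difference between a pair of differences that had opposite signs, each larger than the robust SD of its comparison. With 1 array per group none of these was tested. By this measure 304 of 5007 measured genes (6.07%) had opposite ADX effects at the 2 times, so a reversal on its own is not rare. The genes below are not all of the named genes that meet it. For example, Shbg (-2.06 at ZT2 and 1.38 at ZT14) and the brightest Dab2 probe set (-0.35 and 0.62) also do. The measure asks for no Present call on the brighter array. Shbg was Absent on both ZT14 arrays, and Ass1, given below, was Marginal in sham at ZT2, so neither was called there.

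Cyp2b10 was higher in ADX at ZT14 (0.87) and lower at ZT2 (-0.41), a difference of 1.29. The same 4 signals give 0.56 for ZT14 against ZT2 in ADX and -0.73 in sham, again 1.29 apart. Nr1i2, the receptor PXR, had day-night differences of 0.37 in ADX and -0.49 in sham, 0.85 apart. Among red blood cell markers, Hba-a1 had ADX effects of 1.03 at ZT14 and -0.30 at ZT2, 1.33 apart, and day-night differences of 0.50 in ADX and -0.83 in sham.

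Igfbp1 had ADX effects of 0.52 at ZT14 and -2.13 at ZT2, which are 2.65 apart. Socs2 had 0.76 and -0.97, 1.74 apart, with day-night differences of 0.35 in ADX and -1.38 in sham. Cyp4a14 had 0.33 and -1.58, 1.91 apart, with day-night differences of 0.84 in ADX and -1.07 in sham. The urea cycle gene Ass1, listed as a hepatocyte marker, had 1.26 and -1.47, 2.72 apart, with day-night differences of 2.36 in ADX and -0.36 in sham. The kidney marker Pth1r had 0.78 and -0.67, 1.45 apart, with day-night differences of 0.54 in ADX and -0.90 in sham. The B cell marker Ms4a1 had day-night differences of 0.88 in ADX and -0.47 in sham, 1.35 apart.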

How the results depend on the processing

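No value of the Cyp2b genes reversed, but for many settings this was fixed in advance. Requiring Present on both arrays, or 1.5-fold, changes calls and not the log2 differences. No floor run reached the Cyp2b10 signals. Of their 84 values under alternatives, 72 kept their side of the 2-fold line and, where not called, moved by no more than the robust SD. With the floor at 23.9 units, Cyp2b9 in ADX against sham at ZT2 was 0.32 and Cyp2b13 was 0.00 at ZT14 and in the ADX day-night pair, none past 2-fold, and the sham day-night difference of Cyp2b9 was 0.00. With a floor of 1 unit, Cyp2b13 was -0.65 in ADX against sham at ZT2 and in the sham day-night pair. Requiring a Present call on both arrays ended the calls of Cyp2b9 at ZT2 (1.73) and ZT14 (5.25) and both of Cyp2b13 (2.08). At 1.5-fold, Cyp2b10 passed at ZT14 (0.87) and in the sham day-night pair (-0.73).

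Called probe sets, in the order ADX against sham at ZT2, at ZT14, and the day-night pairs of sham and of ADX, were 160, 244, 367 and 327. They were 20, 46, 142 and 120 with the floor at 23.9, 40, 62, 182 and 144 with Present on both arrays, and 646, 864, 1110 and 1033 at 1.5-fold. With the floor doubled to 7.82, the first 2 were 77 and 135. Of 112 list counts, 85 stayed within 1.5 times and 27 moved. With the mean of a gene's probe sets, CAR and PXR targets at ZT14 went from 1 to 0, female-biased genes from 2 to 3 and glucocorticoid targets from 6 to 4. No paired analysis was possible because each group has 1 array and the labels give no replicate numbers. No array could be left out. Probe sets that are dim on 1 array, as Cyp2b9 and Cyp2b13 are in sham, give folds that depend on the floor.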
